A study of Mus musculus with 8 samples.

Results

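The genes described here are the 4 keratins of simple epithelium, Krt7, Krt8, Krt18 and Krt19, in embryonic mouse kidney. They were taken by name, as every non-control array probe whose RefSeq accession belongs to one of these genes. They are 4 of the 17305 genes that the array names through RefSeq. The rule gave 5 probes of the 41174 on the array, 1 each for Krt7, Krt18 and Krt19 and 2 for Krt8, and all 5 were among the 39522 probes kept for testing. RNA of E13.5 mouse kidneys was compared between a group labelled mutant (UB HDAC1,2-/-) and a group labelled wild type, both of the strain given as CD1 C57BL/6 mix. There were 4 biological replicates of each, and every replicate pair was hybridised on 2 two-colour Agilent arrays with the dyes exchanged, 8 arrays in all. The series' design text speaks of dye swaps on 2 of 4 arrays, whereas the labels of the 8 arrays list an exchange for every replicate. The labels do not spell out UB, and the Cre driver, the number of kidneys pooled per RNA and whether replicates came from separate litters are not given in the sources used here.

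Keratins form the intermediate filaments of epithelial cells, and each filament pairs an acidic type I keratin with a basic type II keratin. Krt18 and Krt19 are type I and Krt7 and Krt8 are type II, and together they make up the filaments of single-layered epithelia. In the developing kidney such epithelium includes the ureteric bud, the branching tube that becomes the collecting ducts and ureter. Keratins that lack a partner are degraded.

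Krt7, Krt8 and Krt18 lie on chromosome 15, where Krt8 and Krt18 are adjacent genes, and Krt19 lies on chromosome 11. The promoters of Krt7, Krt8 and Krt18 are shown because all 3 genes stood higher in the same RNAs, and the sequence table used here has no entry for Krt19. The windows run from 250 bases before to 30 bases after the annotated start, 5′ to 3′ along the gene, from RefSeq on build GRCm38.p6. They are chr15:101412153-101412432 for Krt7 on the plus strand, chr15:102004313-102004592 for Krt8 on the minus strand and chr15:102027966-102028245 for Krt18 on the plus strand. Capitals mark matches to the searched motifs on either strand.
Krt7: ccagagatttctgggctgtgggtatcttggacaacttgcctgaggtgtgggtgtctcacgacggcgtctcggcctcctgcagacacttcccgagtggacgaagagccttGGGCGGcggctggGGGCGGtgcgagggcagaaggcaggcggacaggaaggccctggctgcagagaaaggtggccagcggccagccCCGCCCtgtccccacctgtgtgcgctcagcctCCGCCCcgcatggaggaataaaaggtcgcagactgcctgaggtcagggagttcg
Krt8: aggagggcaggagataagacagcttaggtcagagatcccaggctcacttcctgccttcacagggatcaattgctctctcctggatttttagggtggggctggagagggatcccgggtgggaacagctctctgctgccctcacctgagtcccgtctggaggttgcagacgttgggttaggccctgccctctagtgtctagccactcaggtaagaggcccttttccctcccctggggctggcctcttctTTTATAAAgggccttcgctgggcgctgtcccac
Krt18: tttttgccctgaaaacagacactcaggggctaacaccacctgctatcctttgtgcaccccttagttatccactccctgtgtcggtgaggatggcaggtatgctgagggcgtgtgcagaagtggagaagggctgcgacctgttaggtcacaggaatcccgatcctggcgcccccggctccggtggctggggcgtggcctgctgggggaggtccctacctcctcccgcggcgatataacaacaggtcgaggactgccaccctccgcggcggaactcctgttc
The motifs searched were TATAAA (the TATA box), GGGCGG (the GC box), TGANTCA (AP-1) and AACNGGTT (Grainyhead). The Krt7 window held 4 GC-box matches, none overlapping, and the Krt8 window held 2 TATAAA matches that overlap each other on opposite strands. These 2 begin at −3 and −1 relative to the annotated start and so lie across it. Whether they act as a TATA box was not tested. The Krt18 window held none of the 4 motifs. Of 32851 promoter windows of this length, 13.1% held TATAAA, 34.7% GGGCGG, 7.5% TGANTCA and 2.0% AACNGGTT. The GC content was 65.7% for Krt7, 58.6% for Krt8 and 61.4% for Krt18, against a median of 52.5% over all windows. The 3 windows thus shared none of the searched motifs.

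The values are log2 ratios of labelled mutant over labelled wild type, with the direction taken from the dye labels. In the authors' deposited table the same genes carry the opposite sign, so the direction of every value below is open. Hdac2, one of the deacetylases named in the genotype, gave log2 ratios of 0.60, 0.60, 0.74 and −0.61 in replicates 1 to 4. It was higher in the RNA labelled mutant in 3 of 4 replicates and lower in replicate 4. Its mean was 0.33 ± 0.63 (SD, n = 4; limma adjusted p = 0.757), and Hdac1 is not analysed here. With a spread above its mean in bulk kidney RNA, Hdac2 does not tell which direction is right. Between 79.2% and 97.1% of spots were well above background in each channel. Replicates 1 and 2 shared a slide and a scan, and replicates 3 and 4 shared another. Replicate 2 stood apart, with a limma array weight of 0.18 against 1.15 to 4.07 for the other replicates. The ratios of the 2 dye orientations of a replicate correlated across probes at 0.22 to 0.58. Between arrays of one orientation the lowest correlation was −0.21 with the labelled mutant in Cy5 and 0.04 with it in Cy3. Over the whole array, 6 probes were higher (0.0152% of those tested) and 1 was lower (0.00253%) in the RNA labelled mutant at an adjusted p under 0.05.

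All 4 keratins stood higher in the RNA labelled mutant, between 1.84-fold and 2.35-fold. All 5 probes were above 0 on 8 of 8 arrays, which held for 2.25% of the probes measured on every array. For all 5 the levels in the 4 RNAs labelled mutant lay above those in the 4 RNAs labelled wild type, which held for 1.44% of probes. All 5 also passed an unadjusted p under 0.05 with at least 1.4-fold higher signal, against 0.903% of probes in that direction and 1.21% in the other. The keratins were chosen with earlier results of these data known, so these shares are descriptions only. None of the 5 passed the adjusted threshold over the whole array in the limma fit on 4 replicates, so the calls below turn on how the arrays were combined. The kidneys were measured in bulk, so a larger share of epithelial cells and more keratin RNA per epithelial cell cannot be told apart.

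**Figure D1:**
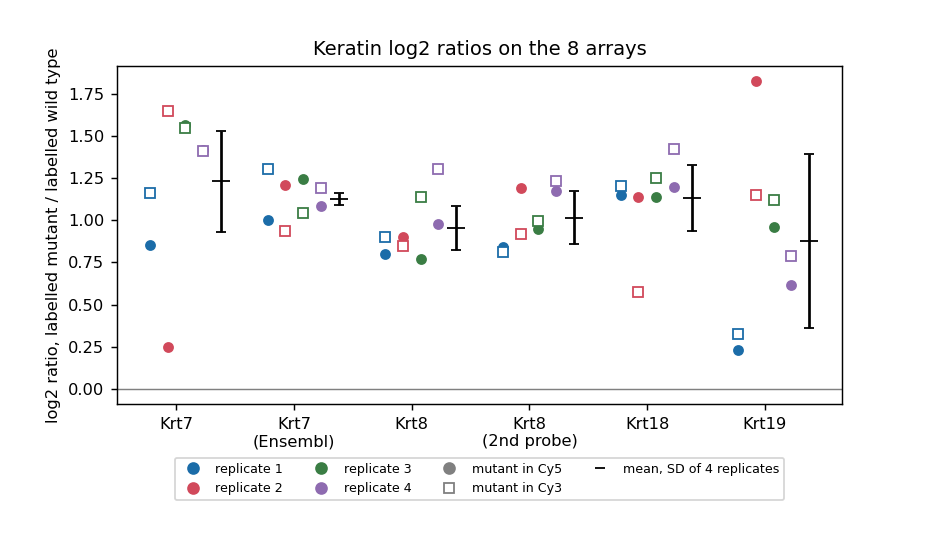
Log2 ratio of labelled mutant over labelled wild type (y axis) of the keratin probes on each array. Colour gives the replicate, filled circles have the labelled mutant in Cy5 and open squares in Cy3, and bars give the mean and SD of 4 replicates. Every point is above 0, and the points of Krt8 lie closer together than those of Krt7 and Krt19.

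Krt7 is the type II keratin of ducts and of the urothelium. Its level, given as log2 of the processed signal relative to the 75th percentile of its channel, was −2.16, −1.85, −2.38 and −2.09 in the RNAs labelled wild type of replicates 1 to 4. In the RNAs labelled mutant it was −1.14, −0.90, −0.82 and −0.66. The groups did not overlap, and the lowest labelled mutant level was 0.71 above the highest labelled wild type level. The log2 ratios were 1.01, 0.95, 1.56 and 1.41, a mean of 1.23 ± 0.30 (SD, n = 4) or 2.35-fold. That mean ranked 16 of 39522 by ratio (limma 95% interval 0.90 to 1.57; adjusted p = 0.118). The exact sign-flip permutation p was 0.13, the smallest that 4 replicates allow, for this and each other keratin probe. Within replicates the dye orientations agreed closely in replicates 3 and 4, but in replicate 2 they gave 0.25 with the labelled mutant in Cy5 and 1.65 with it in Cy3. By slide, the mean was 0.98 on the slide of replicates 1 and 2 and 1.49 on the slide of replicates 3 and 4.

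Another probe, designed on the Ensembl transcript ENSMUST00000068904, is named Krt7 in the authors' deposited table. It lies outside the rule and was added after its values were seen. Its signal was higher, with a mean level of 0.44 in the RNAs labelled wild type against −2.12 for the RefSeq probe. Comparisons of Krt7 with other genes use the dimmer RefSeq probe. Its ratios were 1.15, 1.07, 1.15 and 1.14, a mean of 1.13 ± 0.04 (SD, n = 4; limma adjusted p = 0.0576). The spread over replicates was far smaller than for the RefSeq probe, and the difference between the probes, −0.11 ± 0.28, was within the replicate SD. This probe gave no disagreement of the size seen between the dyes in replicate 2, with 1.21 in Cy5 and 0.94 in Cy3.

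Krt8 is the type II keratin made first in the embryo and the usual partner of Krt18. At its probe with the higher mean signal the level was 2.02, 1.87, 2.10 and 2.00 in the RNAs labelled wild type and 2.88, 2.74, 3.05 and 3.15 in those labelled mutant. The ratios were 0.85, 0.88, 0.95 and 1.14, a mean of 0.96 ± 0.13 (SD, n = 4) or 1.94-fold. The limma 95% interval ran from 0.71 to 1.20, the adjusted p was 0.109 and the rank was 43. Its SD was the smallest of the 5 member probes. The other Krt8 probe stood at 1.88, 1.81, 1.97 and 1.92 in the RNAs labelled wild type and at 2.72, 2.87, 2.94 and 3.13 in those labelled mutant. Its ratios were 0.83, 1.06, 0.97 and 1.21, a mean of 1.02 ± 0.16 (2.02-fold; limma adjusted p = 0.109; rank 33). The 2 probes of Krt8 differed by −0.06 ± 0.09, less than the replicate SD of either. At both probes the groups were separated in every replicate, by 0.65 and 0.74 between the nearest levels.

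Krt18 is the type I partner of Krt8. Its level was 2.56, 2.73, 2.61 and 2.84 in the RNAs labelled wild type and 3.75, 3.58, 3.80 and 4.16 in those labelled mutant. The groups did not overlap, with 0.74 between the nearest levels. The ratios were 1.18, 0.86, 1.20 and 1.31, a mean of 1.14 ± 0.20 (SD, n = 4) or 2.20-fold. The limma 95% interval was 0.86 to 1.41, and the adjusted p of 0.0984 at rank 24 was the lowest of the 5 member probes. The array of replicate 2 with the labelled mutant in Cy3 gave 0.57, and the other 7 arrays gave 1.14 to 1.42.

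Krt19 is a small type I keratin that lacks most of the tail region of other keratins. Its level was −2.15, −3.07, −2.19 and −2.05 in the RNAs labelled wild type, so replicate 2 lay well below the other 3. In the RNAs labelled mutant it was −1.87, −1.58, −1.16 and −1.34. The groups did not overlap, but only 0.18 separated the nearest levels, the narrowest gap of the 5 member probes. The ratios were 0.28, 1.49, 1.04 and 0.70, a mean of 0.88 ± 0.51 (SD, n = 4) or 1.84-fold. This was the widest spread among the member probes, and the limma 95% interval reached from 0.38 to 1.37 (unadjusted p = 0.004857; adjusted p = 0.530; rank 59). The high ratio of replicate 2 came with its low labelled wild type level. Without replicate 2 the mean was 0.67, and without replicate 1, the lowest, it was 1.08. Its means by slide were nearly the same, 0.88 and 0.87.

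**Figure D2:**
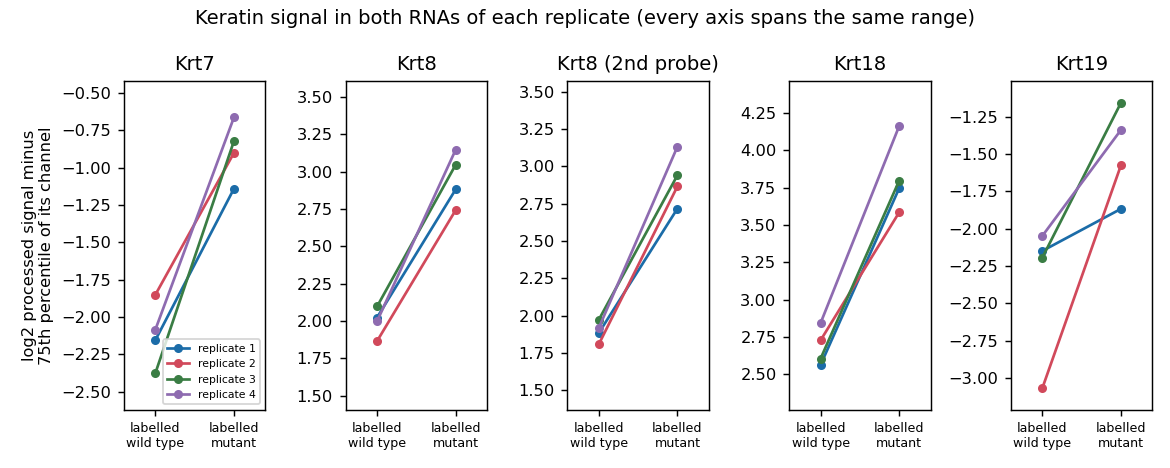
Level of each keratin probe (y axis: log2 processed signal minus the 75th percentile of its channel, mean over both arrays of a replicate) in the RNA labelled wild type and the RNA labelled mutant. Lines join the 2 RNAs of a replicate and every axis spans the same range. All lines go up, and the Krt19 line of replicate 2 starts at −3.07.

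The way the arrays were combined decided whether the keratins passed the adjusted threshold. With all 8 arrays fitted and the replicate as a block, 4 of the 5 probes were called, against 0.243% of all probes. The 2 arrays of a replicate, which repeat the same RNAs and are not further replicates, entered that fit with a consensus correlation of 0.30. The adjusted p-values of that limma fit were 0.0135 for Krt7, 0.00193 and 0.000892 for the Krt8 probes, 0.00123 for Krt18 and 0.0639 for Krt19. With array weights on the replicate means, 5 of 5 were called, Krt19 at an adjusted p of 0.0407, against 0.683% of all probes. Leaving out replicate 2 left Krt18 as the 1 called keratin, at 1.23 (adjusted p = 0.0417; 0.0228% of all probes). By dye orientation, Krt7 was called at 1.44 where Cy3 marked the labelled mutant (adjusted p = 0.0298; 0.0708% of all probes). Where Cy5 marked it none was called, and Krt7 stood at 1.02. Within slides, none was called from replicates 1 and 2, and all 5 were called from replicates 3 and 4, where 0.263% of all probes were called. The size moved less than the calls did. With loess normalization in place of the scanner's own, the means were 0.96 for Krt7, 0.85 for Krt8, 1.03 for Krt18 and 0.59 for Krt19.

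In the authors' deposited table, which lists 496 entries at 1.4-fold and p 0.05 per its name, all 6 entries of the 4 keratins are below 0. The entries are −1.233 and −1.128 for Krt7, −1.016 and −0.956 for Krt8, −1.136 for Krt18 and −0.878 for Krt19. Of the 474 entries of the authors' deposited table found among the kept probes, 410 equal the scanner mean with its sign turned within 0.01, and 0 equal it as labelled. Read the other way round, the same data would put Krt7 at 0.425, Krt8 at 0.516, Krt18 at 0.455 and Krt19 at 0.544 of the other group's signal. For these 6 entries the authors' deposited table and the dye labels give the same size and opposite directions. Among all entries of the authors' deposited table, 270 are below 0 and 226 above, and 25 are as low as or lower than the lowest keratin entry.

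The 4 keratins were compared with one another in 6 pairs. Krt8 was taken at its probe with the higher mean signal and Krt7 at its dimmer RefSeq probe. The largest difference of log2 ratios was Krt7 minus Krt19 at 0.36 ± 0.61 (SD, n = 4; exact permutation p = 0.375; adjusted p = 0.6). Without replicate 2 it was 0.65, and with loess normalization Krt18 minus Krt19 was larger, at 0.43 against 0.36. Krt7 stood 0.28 ± 0.23 above Krt8, and did so in 4 of 4 replicates, which gave the smallest possible exact permutation p of 0.13 (adjusted p = 0.6). With loess normalization that difference was 0.11 (exact permutation p = 0.375), and where Cy5 marked the labelled mutant it was 0.16 (exact permutation p = 0.625). The partners Krt8 and Krt18 differed by −0.18 ± 0.15 (exact permutation p = 0.25; adjusted p = 0.6; 95% interval −0.41 to 0.05). Krt7 minus Krt18 was 0.10 ± 0.22, Krt18 minus Krt19 was 0.26 ± 0.67 and Krt8 minus Krt19 was 0.08 ± 0.54, each within its SD. The order of the 4 was therefore not resolved by these replicates, and 4 replicates can give no p under 0.13. Over the 8 arrays, the root mean square difference of the ratios was 0.26 between Krt8 and Krt18, the smallest of the 6 pairs. It was 0.52 between Krt7 and Krt8, 0.54 between Krt7 and Krt18, and 0.51 to 0.82 between Krt19 and the other 3. Arrays of the same replicate share their RNA, so these are descriptions.

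Of the other listed keratins of simple epithelium and urothelium, 3 of 4 were measured through a RefSeq accession, 2 above and 1 below 0, with a median of 0.02. With so few genes the median moved to 0.32 with the strict filter on dim probes, 0.17 where Cy3 marked the labelled mutant and 0.088 where Cy5 did. Krt23, a type I keratin of simple epithelia, stood at 0.43, 1.01, 0.48 and 0.61, a mean of 0.63 ± 0.26 (limma adjusted p = 0.429). Krt20, the keratin of gut and of superficial urothelial cells, stood at 0.02 ± 0.04, and the atypical Krt222 at −0.06 ± 0.08. For Krt80, a probe named by the authors' deposited table alone stood at 0.61 ± 0.28 (limma adjusted p = 0.466). Krt23, the 1 of the 3 listed genes to do so, was at least 1.4-fold higher at an unadjusted p under 0.05 (0.00252). The 4 keratins met these limits too, against 0.898% of all genes at 1 probe per gene. The Krt80 probe also met them (0.00344), but it was taken from the authors' deposited table alone. By its name that table lists entries at 1.4-fold and p 0.05, so the Krt80 probe cannot be set against that share. Neither Krt23 nor Krt80 passed the adjusted threshold.

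The keratins of basal and stratified epithelium, such as skin, were measured at 18 of 19 genes. Of these, 7 were above and 11 below 0, and the median was −0.08, which stood at 0.04 without replicate 2. None passed the adjusted threshold, and 1 of 18 was at least 1.4-fold lower at an unadjusted p under 0.05, against 1.09% of all genes at 1 probe per gene. That gene was Krt6a, a type II keratin of stressed and hair-follicle epithelium, at −0.76 ± 0.34 (limma adjusted p = 0.396), and with loess normalization it stood at −0.28. Krt15, of basal cells, stood at 0.27 ± 0.23, and Krt79 at 0.23 ± 0.25. Krt1 and Krt9, named after their values were seen, stood at −1.97 and −1.85 in replicate 2 and between −0.08 and 0.40 in the other replicates. Replicate 2 was low for these 2 genes, while Krt2 and Krt4, also named after their values were seen, and Krt79 stood at 0.65, 0.61 and 0.54 in it, their highest values of the 4 replicates. None of the 18 reached the lowest of the 4 means, 0.88 for Krt19.

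**Figure D3:**
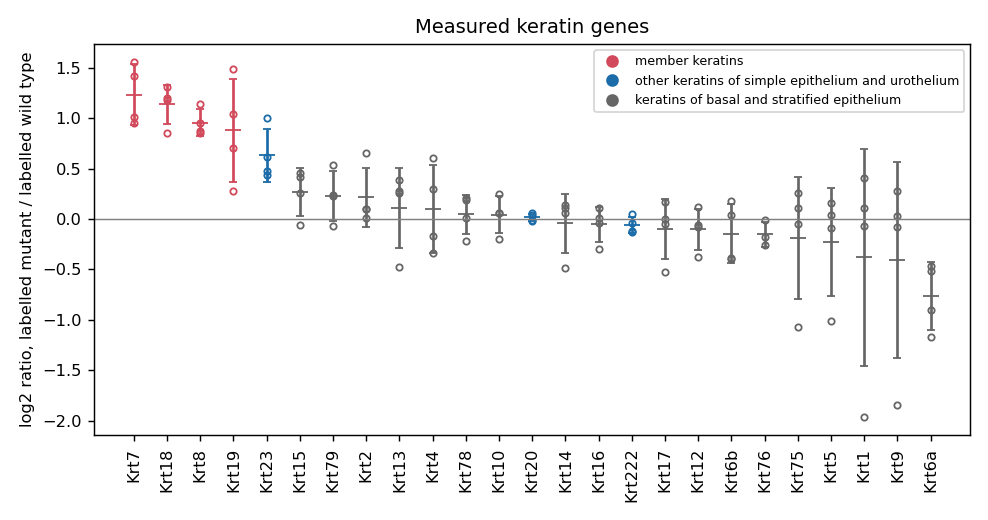
Log2 ratio of labelled mutant over labelled wild type (y axis) of the 25 measured keratin genes, ordered by mean. Open points are the 4 replicates and bars the mean and SD. Krt7, Krt18, Krt8 and Krt19 hold the 4 highest means, Krt23 follows at 0.63, and the low outlying points of Krt1 and Krt9 are replicate 2.

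Keratin filaments are anchored by desmosomes and plakin linkers. All 14 listed genes of that kind were measured, 12 above and 2 below 0, with a median of 0.18. That median was 0.07 with loess normalization and 0.09 without replicate 2, and over 31185 genes the median was 0.01 with 52.9% above 0. None passed the adjusted threshold. Perp, a desmosome membrane protein, stood at 0.53 ± 0.33, and Evpl, the linker envoplakin, at 0.29 ± 0.04. Plec, the linker plectin, stood at −0.50 ± 0.29, while its probes ranged up to −0.08. At the brightest probe of each gene the highest of the 14 was Perp, which stood at 0.30 with loess normalization. Probes of 1 gene differed, and other probes of the desmosomal cadherins Dsc2 and Dsg2, named after their values were seen, reached 0.78 and 0.71 where the brightest stood at 0.18 and 0.00.

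Of the other intermediate filament genes, 12 of 13 were measured, 6 above and 6 below 0, with a median of 0.00 and none passing the adjusted threshold. Synm, the filament protein synemin of muscle, stood at 0.46 ± 0.12 (limma adjusted p = 0.464) and at 0.29 with loess normalization. Lmna, a nuclear lamin, stood at −0.18 ± 0.21, and Prph, the neuronal filament peripherin, at 0.17 ± 0.19. The highest of these 12 means, 0.46 for Synm, lay below the 0.88 of Krt19.

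Transcription factors that act in epithelia were listed beside the keratins. Of 16, 15 were measured, 9 above and 6 below 0, with a median of 0.06 that turned to −0.05 with loess normalization. None passed the adjusted threshold in the fit on 4 replicates, while 4 were at least 1.4-fold higher and 1 lower at an unadjusted p under 0.05, against 0.898% and 1.09% of all genes. Elf5, an ETS factor of glandular and collecting duct epithelium, stood at 1.29 ± 0.18 (limma adjusted p = 0.0637). Tfcp2l1, a factor of collecting duct cells, stood at 1.13 ± 0.08 (limma adjusted p = 0.0576), but its probes ranged from 0.21 to 1.13. Grhl2, a grainyhead factor that regulates epithelial junction genes, stood at 0.60 ± 0.16, with probes from −0.01 to 0.60. With the replicate block Elf5 (limma adjusted p = 0.00123) and Tfcp2l1 (limma adjusted p = 0.000152) passed, and with loess normalization Elf5 stood at 0.83.

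The tissue holds many cell types, and markers of each were read from the same arrays. All 16 markers of ureteric bud epithelium were measured and well above background in both channels of every array. Of these, 12 were above and 4 below 0, the median was 0.35, and it was 0.23 with loess normalization. None passed the adjusted threshold in the fit on 4 replicates. At an unadjusted p under 0.05, 5 of the 16 were at least 1.4-fold higher, against 0.898% of all genes at 1 probe per gene. Calb1, the calcium-binding calbindin, stood at 0.78 ± 0.20 (limma adjusted p = 0.194) and Epcam, an epithelial adhesion molecule, at 0.66 ± 0.11 (limma adjusted p = 0.194). With the replicate block both passed, at limma adjusted p-values of 0.00482 and 0.0104. Cdh1, the epithelial cadherin, stood at 0.37 ± 0.05, Ret, the receptor of bud tips, at −0.05 ± 0.28 and Wnt9b, a bud ligand, at −0.13 ± 0.74. The summed level of the 16 markers, in units of the 75th percentile signal, was 28.1 to 30.8 in the RNAs labelled wild type and 31.8 to 45.5 in those labelled mutant. These ranges did not overlap, so the bud markers stood on the same side as the keratins, and their part in the keratin result was not tested.

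The keratin ratios were set against the bud markers within each replicate. The median ratio over the 16 markers was 0.28, 0.25, 0.25 and 0.43, and the mean of the 4 keratins was 0.83, 1.04, 1.19 and 1.14. Krt7 exceeded the marker median by 0.93 ± 0.28, Krt18 by 0.83 ± 0.15 and Krt8 by 0.65 ± 0.07, each in 4 of 4 replicates. Each gave the smallest possible exact permutation p of 0.13 (adjusted p = 0.167 over 12 comparisons). Krt19 exceeded it by 0.58 ± 0.55 and stood level with it in replicate 1 (exact permutation p = 0.25; adjusted p = 0.273). Against Epcam alone the excess was 0.57 for Krt7, 0.47 for Krt18, 0.29 for Krt8 and 0.22 for Krt19. Against Cdh1 alone it was 0.86, 0.76, 0.58 and 0.51 in the same order of genes. The keratins did not exceed every bud marker, as the highest mean of the 16 was 1.15, above those of Krt8 and Krt19. The differences were larger than their replicate SD for Krt7, Krt8 and Krt18 in each of the 3 comparisons, for Krt19 against the marker median but not against Epcam or Cdh1, and no adjusted p passed 0.05.

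Simple keratins are also made by urothelium, mesothelium and the early nephron. All 7 urothelium markers were measured, 4 above and 3 below 0, with a median of 0.18 that was 0.01 with loess normalization. Shh, the hedgehog ligand, stood at 1.53 ± 0.29 (limma adjusted p = 0.0744), Foxa1, a forkhead factor, at 0.88 ± 0.43 and Trp63, a factor of basal cells, at 0.49 ± 0.33. With loess normalization these 3 stood at 0.62, 0.31 and 0.26. The uroplakins, which define mature urothelium, stood at −0.07 for Upk1a, 0.18 for Upk1b, −0.07 for Upk2 and −0.00 for Upk3a. The summed urothelium level was 0.661 to 1.95 in the RNAs labelled wild type and 0.745 to 1.96 in those labelled mutant, and the ranges overlapped. Of 7 mesothelium markers 6 were measured, 3 above and 3 below 0, with a median of 0.01. Msln, mesothelin, stood at 0.88 ± 0.28 (limma adjusted p = 0.209) and at 0.54 with loess normalization, Wt1 at −0.29 ± 0.11 and Lrrn4 at −0.49 ± 0.86. The summed mesothelium level was 7.89 to 9.10 and 6.54 to 7.94 in the same order of groups, and these ranges overlapped. Of the 8 early nephron markers 7 were above 0, with a median of 0.18. Wnt4, the ligand that starts nephron formation, stood at 0.49 ± 0.30, Hes5, a Notch target, at 0.58 ± 0.44 and Fgf8 at 0.16 ± 0.12. None of these markers passed the adjusted threshold in the fit on 4 replicates. With the replicate block Shh (limma adjusted p = 0.00123) and Msln (limma adjusted p = 0.00835) did. The part of these cell types in the keratin result was not tested.

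Markers of other cell types were read as well. The median was −0.10 over 8 nephron progenitor markers, led by Eya1 at −0.24 ± 0.26, Osr1 at −0.18 ± 0.20 and Itga8 at −0.16 ± 0.13. It was −0.15 over 9 stroma markers, with Col1a1 at −0.29 ± 0.10, Meis1 at −0.27 ± 0.13 and Meis2 at −0.24 ± 0.07. Other probes ranged up to 0.10 for Col1a1 and down to −0.93 for Meis1. At the brightest probe of each gene, all 8 macrophage markers were below 0, with a median of −0.34. Other probes reached 0.05 for Csf1r and 0.07 for Adgre1, the latter named after its values were seen. Cx3cr1 stood at −0.49 ± 0.20, C1qa at −0.37 ± 0.14 and Csf1r at −0.38 ± 0.30. The summed level of the 8 brightest probes was 4.53 to 5.67 in the RNAs labelled wild type and 3.70 to 4.29 in those labelled mutant, without overlap. At these probes the macrophage markers thus stood on the other side of 0 from the keratins, and their part in the keratin result was not tested. The medians were 0.05 over 8 endothelium markers, −0.09 over 7 erythroid markers and −0.02 over 7 markers of adrenal cortex and gonad. The erythroid median turned to 0.094 without replicate 2 and to 0.0093 without replicate 4. Tek, an endothelial receptor, stood at 0.50 ± 0.46 and Amh, a gonad hormone, at 0.39 ± 0.28. No marker of these types passed the adjusted threshold in the fit on 4 replicates or with the replicate block.

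**Figure D4:**
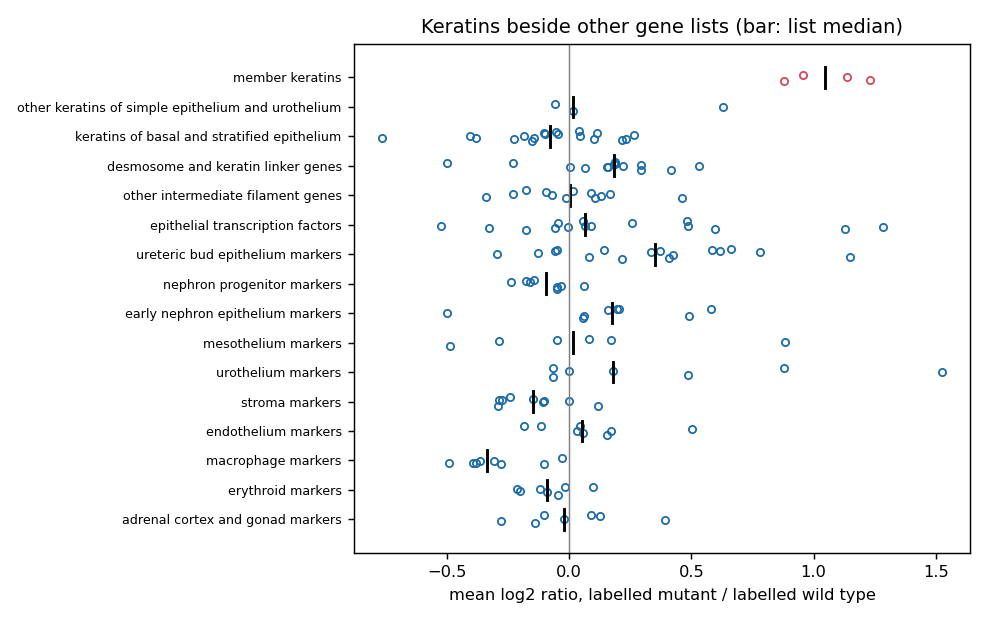
Mean log2 ratio of labelled mutant over labelled wild type (x axis) of each measured gene of the lists, 1 row per list, with the list median as a black bar. The keratins Krt7, Krt8, Krt18 and Krt19 have a median of 1.05, the ureteric bud markers 0.35 and the macrophage markers −0.34.

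Keratin genes lie in clusters, so the genes beside the 4 were read as well, in the order RefSeq gives on GRCm38.p6 and with this comparison chosen after the data had been seen. The 3 nearest genes measured through a RefSeq accession on each side gave 18 genes other than the members. Genes without such a probe could not enter this comparison. Krt80 is among them, and the probe that the authors' deposited table names for it stood at 0.61 ± 0.28. Of the 18 genes compared, 8 were above and 10 below 0, the range was −0.40 to 0.27 and the median −0.05. None of the 18 was at least 1.4-fold higher or lower at an unadjusted p under 0.05. Krt7 exceeded its neighbour Krt87, a hair keratin, by 1.23 ± 0.19. On its other side it exceeded Atg101, an autophagy gene, by 1.32 ± 0.28. Between these lie 2 genes that were not measured through a RefSeq accession, so the nearest genes on that side are not covered. Krt8 exceeded Krt78 by 0.91 ± 0.16, and Krt18 exceeded Eif4b, a translation initiation factor, by 1.20 ± 0.16. Krt19 exceeded Krt15 by 0.61 ± 0.68 and Krt9 by 1.28 ± 1.45, both with a spread above the difference. Apart from the pair with Krt9 (exact permutation p = 0.25; adjusted p = 0.25), each difference held in 4 of 4 replicates at the smallest possible exact permutation p of 0.13 (adjusted p = 0.15 over 6). The adjacent Krt8 and Krt18 were thus flanked by Krt78 at 0.05 ± 0.20 and Eif4b at −0.06 ± 0.36.

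The genes with the most similar values were found by the root mean square difference of the log2 ratio over the 8 arrays, among 17042 named genes at 1 probe each. For Krt8 the nearest were Plac8, a small cysteine-rich protein, at 0.19, Tfcp2l1 at 0.22 and Cys1, the cilium protein cystin, at 0.23. For Krt18 they were Tfcp2l1 at 0.18, Mia, a small secreted protein, at 0.23 and Tm4sf20, a membrane protein, at 0.26. Tfcp2l1 was thus near both partners of the filament at the probe compared, the highest of its probes, which ranged from 0.21 to 1.13. The Mia probe compared had a mean of 1.18, and other probes of Mia stood higher, at 1.81 and 1.49. For Krt7 the nearest were farther off, Elf5 at 0.39, A2ml1, a protease inhibitor, at 0.39 and Wfdc15b, a secreted WAP-domain protein, at 0.39. Krt19 had the closest neighbour of all, Foxa1 at 0.11, followed by Prom2, a protein of membrane protrusions, at 0.22 and Sp5, a zinc-finger factor, at 0.23. For comparison, the median over all named genes was 0.97 to 1.31 for the 4 keratins. That median does not say how near the closest of 17042 genes would lie without any link. A small difference can also come from a like mean alone. The correlation of these genes with their keratin over the 8 arrays ran from 0.06 for Cys1 with Krt8 to 0.98 for Foxa1 with Krt19.

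Foxa1, Prom2 and Sp5 were picked as the nearest to Krt19 on these same arrays, so their likeness to it follows from the choice. Foxa1 gave 0.42, 1.45, 0.93 and 0.72 in replicates 1 to 4, beside 0.28, 1.49, 1.04 and 0.70 for Krt19. The level in the RNA labelled wild type of replicate 2 was the lowest of 4 for Foxa1 at −6.05, for Prom2 at −3.84 and for Sp5 at −2.16, as it was for Krt19. Foxa1 was well above background in that group on 6 of 8 arrays, and Krt19, Prom2 and Sp5 on 8 of 8. The part of that 1 RNA in the likeness was not tested. The probe sequences were not used here, and cross-hybridisation between related keratins was not tested.

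**Figure D5:**
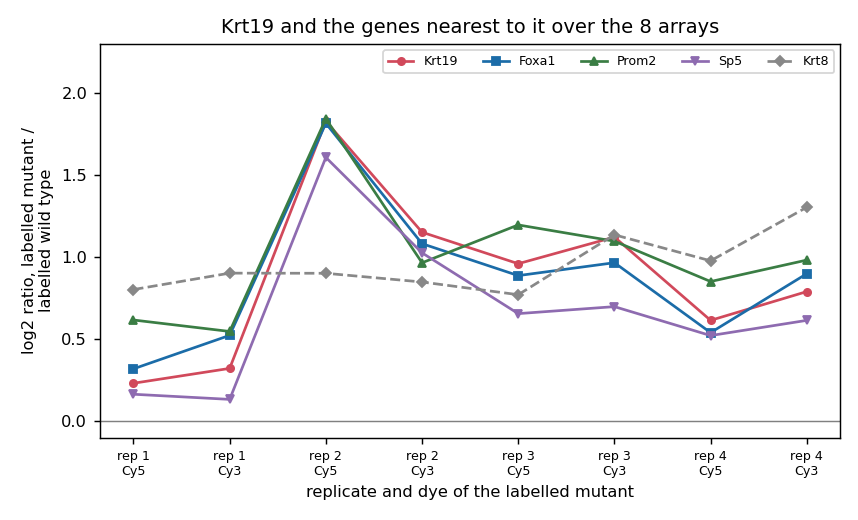
Log2 ratio of labelled mutant over labelled wild type (y axis) on each of the 8 arrays (x axis: replicate and dye of the labelled mutant) for Krt19, the 3 genes nearest to it and Krt8. Krt19, Foxa1, Prom2 and Sp5 are low in replicate 1 and highest on the Cy5 array of replicate 2, whereas Krt8 stays between 0.77 and 1.30.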

How the data were processed

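RNA of 4 labelled mutant and 4 labelled wild type kidney replicates was measured on 8 two-colour Agilent arrays. Per the labels' protocols, cRNA was made from 0.5 µg of total RNA. Per the file headers, spots were extracted with Feature Extraction 10.5.1.1, and the authors deposited intensity values (background-subtracted, dye-normalized), the log10 ratio of red over green, and flags of 0 or 1. The authors' deposited table holds 1 ratio per entry that matches log2 with the sign turned. Its fold and p limits are known from its name alone.

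From these files, the log10 ratio was written as log2 and turned to labelled mutant over labelled wild type. Control spots (1639 of 45018) and outlier flags were left out, spots of a probe averaged, then the 2 dye orientations of a replicate. Probes well above background in either channel on at least 4 of 8 arrays, with values in at least 3 replicates, were kept. Ratios were tested against 0 with limma (version 3.58.1, run under R 4.3.3), and p-values were adjusted over all kept probes by the Benjamini-Hochberg method, with a threshold of 0.05. The fit was tested on simulated data. RefSeq names were found for 25097 probes through their accessions. Lists use the brightest probe of a gene.

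The alternatives were normexp (offset 50 or 16, on the median spot signals that the files hold) with loess, median centring, no or a stricter filter, the replicate as a block, array weights, each dye orientation, slide as a block and alone, 1 probe per gene, and leaving out each replicate. Replicate numbers pair the 2 RNAs of an array in the labels, and the ratio keeps that pairing. The number of arrays limits the precision. Where separate litters are not stated, p-values measure the spread between these samples.

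Named were all probes of the 4 keratins, Hdac2, the 3 genes of smallest p in each list (all that passed if more), and the 3 genes most like each keratin. Some genes that this rule names are not reported here. Genes outside this rule are defining markers of a cell type, chromosome neighbours, or said to be chosen after their values were seen. The keratins and lists were chosen with earlier results of these data known.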

Additional observations from a re-analysis of the deposited data

Results flagged for a closer look

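Among 68 sets of 4 values checked, 8 held 1 value whose gap to the nearest other, divided by the whole range, was above Dixon's critical value for 4 samples at 95%, which chance passes in about 1 set in 20. The level of Krt19 in the RNAs labelled wild type gave 0.857, with replicate 2 at −3.07 and the others at −2.19 to −2.05. The Hdac2 ratio gave 0.898, with replicate 4 at −0.61 and the others at 0.60 to 0.74. The Elf5 ratio gave 0.883, with replicate 3 at 1.56, and the Cys1 ratio gave 0.9 and the Tm4sf20 ratio 0.869. The ratio of Kdr, an endothelial receptor, gave 0.838, with replicate 1 at 0.02 and the others at −0.27 to −0.22. The erythroid Hbb-bh1 gave 0.833, with replicate 4 at −0.67. Amh, a gonad hormone, gave 0.857, with replicate 2 at 0.81. Of the ratios and levels of the keratin probes, the Krt19 level was the only one that stood out by this measure. The causes were not tested.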

How the results depend on the processing

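All 5 keratin probes stayed above 0 and at least 1.4-fold higher at an unadjusted p under 0.05 in every alternative that holds them. Leaving out replicates moved the means to 1.12 to 1.33 for Krt7, 0.89 to 0.99 for Krt8, 1.08 to 1.23 for Krt18 and 0.67 to 1.08 for Krt19. The adjusted threshold was passed in some alternatives. With the replicate block these were Krt7 at 1.23 (adjusted p = 0.0135), Krt8 at 0.96 and Krt18 at 1.14. With array weights they were Krt7 at 1.42, Krt8 at 0.97, Krt18 at 1.20 and Krt19 at 0.86. On the slide of replicates 3 and 4 they were Krt7 at 1.49, Krt8 at 1.05, Krt18 at 1.25 and Krt19 at 0.87. With the labelled mutant in Cy3 alone it was Krt7 at 1.44, and without replicate 2 it was Krt18 at 1.23.

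Krt7 minus Krt18 turned to −0.072 with loess (offset 50) and to −0.13 with the labelled mutant in Cy5 alone. Krt8 minus Krt19 turned to −0.045 with it in Cy5 alone, and it ran from −0.088 to 0.31 when 1 replicate was left out, below 0 without replicate 1 and without replicate 4.

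Probes called higher over the array, 6 by the fit on 4 replicates, were 1 with loess at either offset, 1 without a filter, 12 with the strict filter, 96 with the replicate block, 270 with array weights, 0 with Cy5 alone, 28 with Cy3 alone, 0 with slide as a block, 0 on the slide of replicates 1 and 2, 104 on the other, 2 with 1 probe per gene, and 0 to 9 without 1 replicate. Probes called lower, 1 by that fit, were 0 with loess at either offset, 37 with the replicate block, 192 with array weights, 8 with Cy3 alone, 0 on the slide of replicates 1 and 2, 348 on the other, and 0 to 1 without 1 replicate. Where 0 were called higher, the count at an unadjusted p under 0.05 was 2338 with Cy5 alone, 2228 with slide as a block 750 on the slide of replicates 1 and 2, 2596 without replicate 1, 912 without replicate 3 and 1962 without replicate 4, in either direction and by limma. Each slide alone holds 2 replicates. List medians near 0 changed sign in some alternatives for the basal, other filament, epithelial factor, mesothelium, endothelium, erythroid and adrenal lists and the other simple keratins. The cause was not tested.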
